A study of Mus musculus with 16 samples.

Results

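The 7 genes Mbp, Mobp, Mal, Cldn11, Cnp, Mag and Mog of the myelin sheath were followed through demyelination and the return to regular diet in the mouse corpus callosum. They were taken by name, with every array probe whose transcript record maps to them, which gave 12 probes of 7 genes among 41153 probes of 18737 named genes. As a set they were listed as structural proteins of compact myelin, a name that covers only some of them. Mbp and Mobp encode proteins of compact myelin, whereas Mag lies on the inner, axon-facing membrane, Mog on the outer surface of the sheath, Cnp in the cytoplasmic channels, and Cldn11 in the tight junctions between its layers. Mal encodes a raft-associated proteolipid of myelin. They are therefore called myelin genes here.

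Feeding mice cuprizone (CPZ), which binds copper, is a standard model of myelin loss: oligodendrocytes die while it is in the chow. Once normal chow returns, precursor cells mature into oligodendrocytes that wrap the axons anew. RNA of punched-out corpus callosum was hybridized to 16 single-colour Agilent 4x44K whole mouse genome arrays. The mice were wild-type C57BL/6 males, aged 7 to 8 weeks at inclusion according to the methods. Untreated controls were matched in age and sex to the group of 4 weeks of CPZ. No such match is stated for 2 weeks or for regular diet, and an effect of age on those comparisons was not tested. Untreated controls on normal diet gave 3 arrays, feeding with CPZ in powdered chow (0.2 to 0.4% in the labels, 0.2% in the methods) gave 3 arrays after 2 weeks and 4 arrays after 4 weeks, and 4 weeks of CPZ followed by regular diet gave 6 arrays. The methods name 2 times on regular diet, 2 days and 14 days, and the labels leave out which time each of the 6 arrays belongs to, so these arrays were kept as 1 labelled group and are described 1 by 1. The methods state 3 to 6 mice for each condition. The labels number the replicates without saying that each is a separate mouse, so the p-values measure the spread between arrays, which may in part be technical.

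Myelin is made by oligodendrocytes, which wrap axons in stacked turns of membrane. In a mature sheath, Mbp glues the cytoplasmic faces of the membrane together, Mag contacts the axon, Mog faces the outside, and Cldn11 seals the layers. Transcripts of these genes are abundant in mature oligodendrocytes and low or absent in other cells of white matter. In a tissue punch, fewer oligodendrocytes and less RNA per oligodendrocyte cannot be told apart.

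Values are log2, which the authors scaled to each array's 75th percentile, and for each probe they are given as the difference from the median untreated array. Every mean is only as precise as its few arrays allow. Per array, 57.4 to 72.2% of the probes were well above background, and 2 arrays of the same group correlated across probes with r between 0.867 and 0.991. Of the 16 columns of the value table, 14 held the scanner values of an array filed under a different sample, which for 13 was of a different condition. The columns were used as they are named. Over the 3 columns named untreated, the median was 0 for 100% of the probes, so the baseline of the value table was taken from these columns. Of these, replicates 2 and 3 hold the scanner values of arrays filed under 4 weeks of CPZ. Which assignment is right was not tested. With each scanner file under its recorded sample instead, the median difference of the 12 probes turned from -3.25 to 1.1 after 2 weeks of CPZ and from -2.38 to 0.51 after 4 weeks, and none of the 12 was called. Under that assignment it was -0.61 for 4 weeks against 2 weeks, -1.6 for regular diet against untreated and -2.24 for regular diet against 4 weeks. Every direction given in what follows rests on the naming of the columns.

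Upstream sequence was read from RefSeq for the start sites of 6 of the 7 genes (assembly GRCm38.p6), which have 8 annotated starts in all. The windows ran from 250 bases before to 50 bases after each start. They were searched on both strands for 5 motifs. These were ACAAAG, which is the core bound by SOX factors such as Sox10, its close variant ACAATG, the E-box of basic helix-loop-helix factors CANNTG, the TATA element of core promoters TATAAA and the GC box bound by Sp1, GGGCGG. None of the 5 contains another. The SOX core lay in 4 of the 8 windows, against 18.7% of 32851 windows of the same length over all genes. Mobp alone held 6 matches, and no other of the 32851 windows held as many. Mag, at 2 of its starts, which share the same site, and Cnp held 1 match each. The variant and the TATA element lay in none of the 8 windows (12.6 and 13.6% of all windows), the E-box in 4 (72.3%) and the GC box in 2 (35.7%). These sequences are shown because Mobp held the most matches of all windows. The first is the whole upstream stretch of Mobp at chr9:120149492-120149741 on the + strand, and the others are stretches of 60 bases around the match of Mag at chr7:30914957-30915016 on the - strand and of Cnp at chr11:100574745-100574804 on the + strand. All read 5′ to 3′ in the direction of the gene, with the SOX core or its reverse complement in capitals.
Mobp: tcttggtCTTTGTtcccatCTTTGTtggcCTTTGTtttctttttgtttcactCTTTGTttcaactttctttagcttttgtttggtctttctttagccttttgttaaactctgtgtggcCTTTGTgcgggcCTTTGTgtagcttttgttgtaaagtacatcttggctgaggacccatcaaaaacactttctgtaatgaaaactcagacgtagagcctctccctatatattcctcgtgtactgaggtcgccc
Mag: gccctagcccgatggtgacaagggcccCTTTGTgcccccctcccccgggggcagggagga
Cnp: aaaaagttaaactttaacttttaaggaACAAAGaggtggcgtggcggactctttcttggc
All 6 matches of Mobp read as the reverse complement, as did that of Mag, while Cnp held the forward form. A match of letters is not a bound site, and binding was not measured on these arrays.

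All 12 probes passed the filter on signal, which asks for every array of at least 1 group. Each was well above background on 16 of 16 arrays, except Mog on 15 of 16, which a filter on every array would leave out, and none was saturated. The exception was replicate 2 of 2 weeks of CPZ, so the Mog value there is close to the background of that array.

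After 2 weeks of CPZ, the RNA of all 7 genes lay below the untreated level on every array by the brightest probe of each gene. The third Mbp probe did not, at -0.35, 0.73 and 0.07. The mean level of the leading probe of each gene, the brightest of its probes, stood between 4.01% of the untreated median for Mog and 16.6% for Cldn11. The Mog mean includes replicate 2, where Mog was not well above background, so 4.01% is not an exact level. Mal, well above background on every array, stood at 6.24%. Of the 12 probes, 11 had every CPZ array below every untreated array, against 8.98% of the 27499 probes tested, and the same 11 were at least 2-fold lower, against 2.88%. Nonetheless no myelin probe passed the limma test (at least 2-fold, with a p adjusted by Benjamini-Hochberg under 0.05), which called 0.124% of all probes lower. At an unadjusted limma p under 0.05, 11 of the 12 were lower, against 5.08% of all probes. The median difference of the 12 probes was -3.25, against 0.04 over all probes. The 3 arrays at 2 weeks spread widely, with medians over the 12 probes of -1.93, -4.94 and -3.17.

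**Figure D1:**
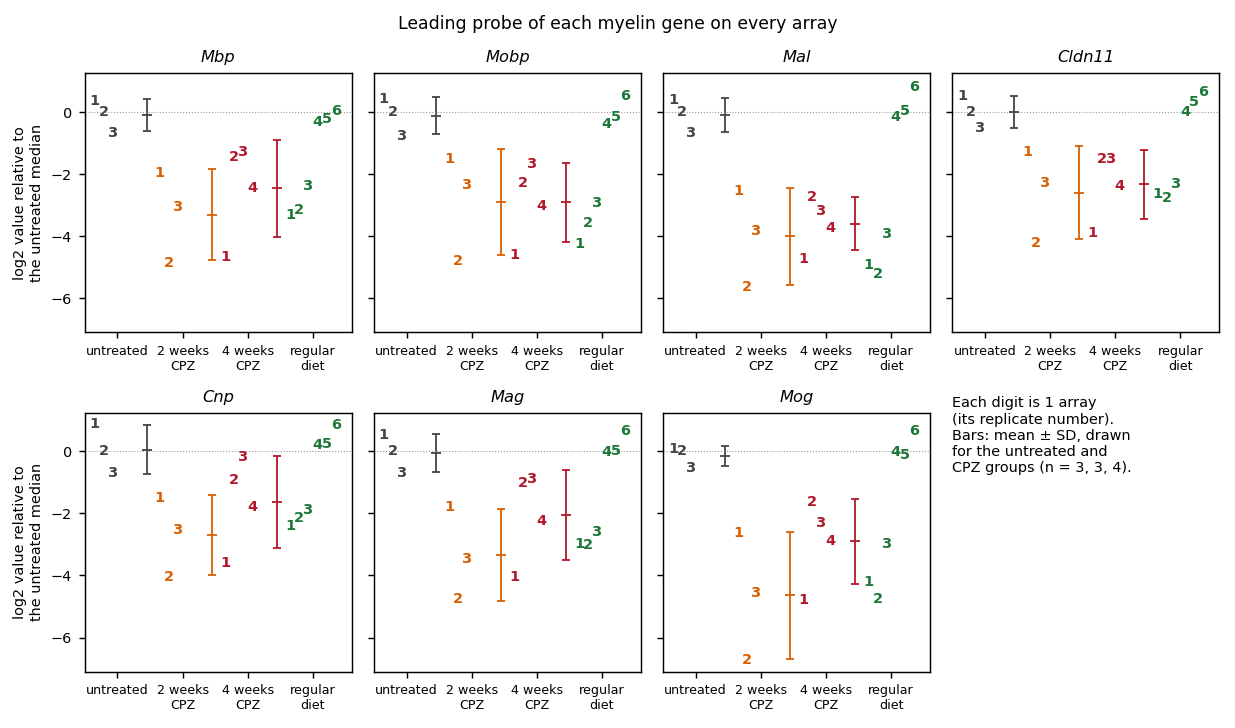
The log2 value of the leading probe of each gene (vertical axis, relative to the untreated median) on every array, by group; each digit is 1 array and gives its replicate number, and bars are the mean ± SD of the untreated (n = 3), 2-week (n = 3) and 4-week (n = 4) arrays. All 7 genes lie below the untreated arrays at 2 weeks, and the 6 regular diet arrays fall into a low set (replicates 1, 2 and 3) and a set at the untreated level (4, 5 and 6).

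Mbp, whose protein compacts the cytoplasmic faces of the sheath, measured 0.37, 0 and -0.66 on the untreated arrays and -1.97, -4.88 and -3.06 after 2 weeks of CPZ by its leading probe. The groups did not overlap. The difference was -3.21 ± 0.95 (SE), or 9.23-fold lower, with a limma adjusted p of 0.22. On leaving out 1 array it ranged from -3.87 to -2.42, the latter without replicate 2 of 2 weeks. After 4 weeks the 4 arrays measured -4.66, -1.46, -1.28 and -2.45. All 4 lay below the untreated arrays, at a difference of -2.36 ± 0.89 (limma adjusted p = 0.376).

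Mobp, a small basic protein that also sits in the compacted cytoplasmic layer, measured 0.41, 0 and -0.76 untreated, and -1.51, -4.8 and -2.35 at 2 weeks. At 4 weeks it read -4.62, -2.29, -1.67 and -3.02. Its mean was the same at both times, at 13.5 and 13.4% of the untreated median, whereas the means of the other 6 genes were higher at 4 weeks than at 2. Without replicate 2 of 2 weeks this no longer held for all 6: 4 weeks then stood -0.97 from 2 weeks for Mobp, -0.42 for Mal, -0.55 for Cldn11 and 0.05 for Mbp. The difference from untreated was -2.77 ± 0.92 at 2 weeks (limma adjusted p = 0.299) and -2.78 ± 0.86 at 4 weeks (adjusted p = 0.252). The second Mobp probe, on another transcript record, gave -3.2 and -3.45.

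Mal, the raft-associated proteolipid, gave the smallest adjusted p of the 7 genes at both times. Its leading probe measured 0.39, 0 and -0.68 on the untreated arrays, -2.53, -5.65 and -3.82 at 2 weeks, and -4.73, -2.73, -3.2 and -3.73 at 4 weeks. All 7 CPZ arrays lay below the untreated ones. The difference was -3.91 ± 0.76 at 2 weeks (15-fold lower, limma adjusted p = 0.0814) and -3.5 ± 0.71 at 4 weeks (11.3-fold lower, adjusted p = 0.0918). On leaving out 1 array, the Mal difference ranged from -4.64 to -3.08 at 2 weeks and from -3.79 to -3.12 at 4 weeks. Its second probe gave -4.02 and -3.52. At 4 weeks Mal had the smallest SD among the leading probes, 0.86 against 1.12 to 1.55 for the other 6. Its call depended on the processing. At least 1 Mal probe was called at both times with normexp background correction. There 81 and 34 of 27499 probes were called lower at 2 and 4 weeks. The same held with the slide as a random block (168 and 133) and with array weights (685 and 1057). Array weights, though, gave replicate 3 of 2 weeks a weight of 307.84, against 0.2 to 4.74 for the other arrays. At 4 weeks Mal was also called when only the groups compared were fitted (95 of 23849 probes called lower). It was also called there when replicate 2 of 2 weeks was left out (38 of 27987).

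Cldn11, the tight junction claudin of the sheath, measured 0.52, 0 and -0.52 untreated and -1.29, -4.21 and -2.28 at 2 weeks. At 4 weeks the arrays read -3.9, -1.52, -1.52 and -2.39. The groups did not overlap at either time, at differences of -2.59 ± 0.81 (limma adjusted p = 0.249) and -2.33 ± 0.76 (adjusted p = 0.281).

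Cnp, the phosphodiesterase that keeps cytoplasmic channels open within the sheath, measured 0.87, 0 and -0.71 untreated and -1.5, -4.06 and -2.54 at 2 weeks. The groups did not overlap at 2 weeks, with a difference of -2.76 ± 0.91 (limma adjusted p = 0.29). At 4 weeks the values were -3.61, -0.92, -0.19 and -1.8, and replicate 3 lay within the untreated range. Cnp had the smallest difference of the 7 at 4 weeks, -1.68 ± 0.85, with a 95% interval from -3.6 to 0.23 (adjusted p = 0.579).

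Mag, the axon-facing adhesion molecule, measured 0.54, 0 and -0.69 untreated and -1.81, -4.76 and -3.48 at 2 weeks. It read -4.04, -1.02, -0.89 and -2.24 at 4 weeks. No CPZ array reached the lowest untreated array, although replicates 2 and 3 at 4 weeks stood close to it. The differences were -3.3 ± 0.93 (limma adjusted p = 0.195) and -2 ± 0.87 (adjusted p = 0.479), and the second probe gave -3.93 and -2.36.

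Mog, the immunoglobulin-like protein of the outer surface, measured 0.06, 0 and -0.53 untreated and -2.63, -6.72 and -4.57 at 2 weeks, the -6.72 being not well above background, so that 2 of the 3 arrays measured it. The difference was -4.48 ± 1.02 (limma adjusted p = 0.118) and -3.44 without that array. It depended on how background was handled: with normexp it was -2.39, which passed the test (limma adjusted p = 0.0182, range over the alternatives 0.000128 to 1). Of the 7 genes Mog thus had the largest difference at 2 weeks as the authors scaled the values and the smallest with normexp. At 4 weeks it measured -4.79, -1.63, -2.31 and -2.89, for a difference of -2.75 ± 0.96 (limma adjusted p = 0.33), or -1.75 with normexp.

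Of the 3 probes of Mbp, the first and second share 1 transcript record and behaved alike, with differences of -3.21 and -3.4 at 2 weeks and of -2.36 and -2.39 at 4 weeks. The third, filed under another record of Mbp, did not follow them. It measured -0.38, 0.23 and 0 on the untreated arrays, -0.35, 0.73 and 0.07 at 2 weeks and -0.1, 0.16, -0.25 and -0.01 at 4 weeks. Its difference was 0.2 ± 0.29 at 2 weeks, with a 95% interval from -0.45 to 0.85, and 0 at 4 weeks, with an interval from -0.61 to 0.61. Both intervals leave out a 2-fold decrease. The third probe was well above background on 16 of 16 arrays. The Mbp locus also gives rise to golli transcripts from an upstream start, and which transcripts the third probe detects was not tested.

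**Figure D2:**
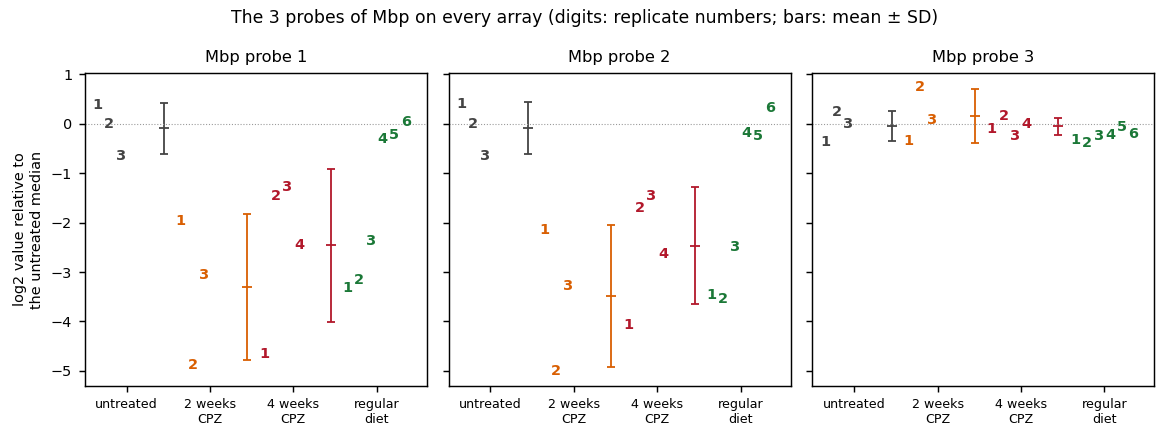
The 3 probes of Mbp on every array (vertical axis, log2 relative to the untreated median; digits are replicate numbers, bars the mean ± SD of the untreated, 2-week and 4-week arrays). Probes 1 and 2 lie between -5.01 and -1.28 on the CPZ arrays, while probe 3 lies between -0.35 and 0.73.

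After 4 weeks of CPZ, 10 of the 12 probes had every array below every untreated array, against 4.71% of all probes, and Cnp and the third Mbp probe overlapped. Of the 12 probes, 11 were at least 2-fold lower (7.19% of all probes) and 10 had an unadjusted limma p under 0.05 (5.03% lower among all). None was called, against 0.0836% of all probes called lower. The median difference was -2.38, against -0.03 over all probes, and the array medians were -4.64, -1.58, -1.5 and -2.54. The mean level of the leading probes ranged from 8.26% of the untreated median for Mal to 32.3% for Cnp. Both CPZ comparisons share the 3 untreated arrays and are not independent of each other.

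**Figure D3:**
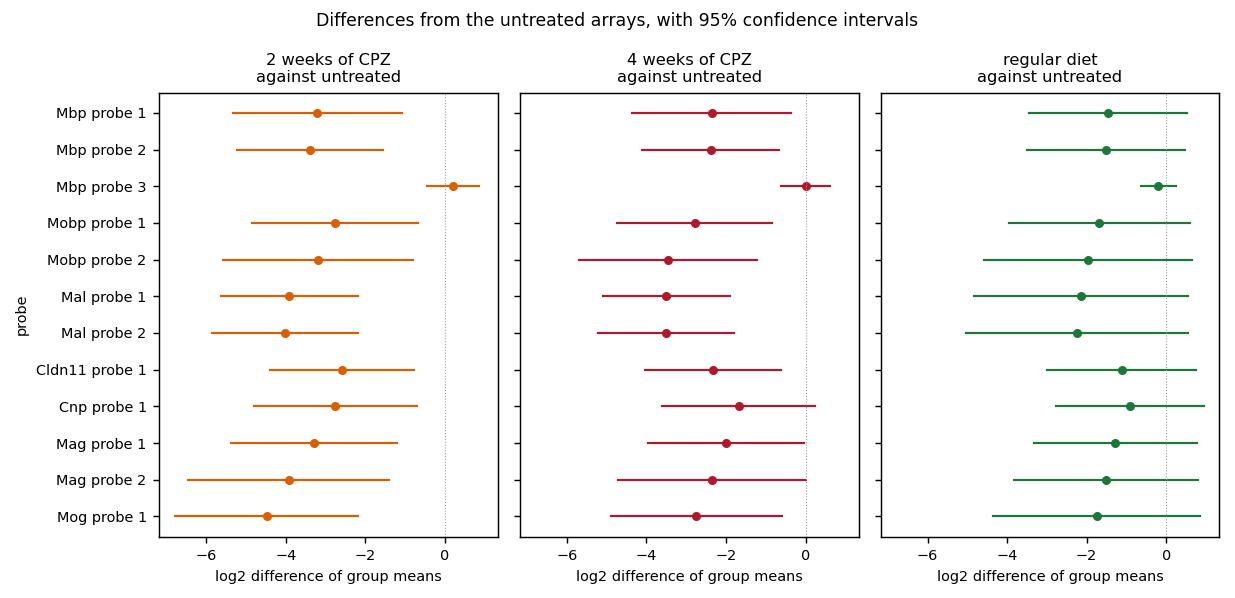
Difference of group means from the untreated arrays for each of the 12 probes (horizontal axis, log2; points with 95% confidence intervals from limma), for 2 weeks of CPZ, 4 weeks of CPZ and regular diet. The intervals of 11 probes exclude 0 at 2 weeks, those of the third Mbp probe span 0 in all 3 panels, and on regular diet all 12 intervals span 0.

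Between 2 and 4 weeks of CPZ the myelin genes did not separate. The median difference of 4 weeks against 2 weeks was 0.67, against -0.01 over all probes. With the slide as a block, that of the 12 probes was 1.81 (fixed) or 1.05 (random). None of the 12 probes was called higher or lower by limma, nor did any have an unadjusted p under 0.05 (5.8% lower and 4.71% higher among all probes). Limma called 0.0109% of all probes lower and 0% higher. A total of 5 probes, of Mbp, Mag, Mog and Cnp, were at least 2-fold higher at 4 weeks (1.16% of all probes), with Mog at 1.74 ± 0.96 and an interval from -0.42 to 3.89 (limma adjusted p = 0.492), or 0.64 with normexp. Mobp differed least, at -0.02 ± 0.86 with an interval from -1.96 to 1.93. Replicate 2 at 2 weeks, the lowest of the 16 arrays for 10 of the 11 probes other than the third of Mbp, carried most of this difference. Without it, the median was 0.07 (1.4 without replicate 1 of 2 weeks), and that of 2 weeks against untreated was -2.51.

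On the CPZ arrays the 7 genes stood low together, but not equally. Relative to the others of the same array, Mog or Mal was the lowest of the 7 on all 7 CPZ arrays, Mog on 3 of 3 at 2 weeks and Mal on 3 of 4 at 4 weeks. The place of Mog holds for the values as the authors scaled them, since normexp gave it the smallest mean difference at 2 weeks. On replicate 2 of 2 weeks Mog was not well above background, so its place on that array rests on a value at background. The least affected gene was Cnp on 5 and Cldn11 on 2 of these 7 arrays. Mal lay below Cnp on 7 of 7 CPZ arrays, by 1.03 to 3.01 on the log2 scale. On regular diet it lay below Cnp by 2.52, 3.06 and 2.03 on replicates 1 to 3, and by 0.37, 0.23 and 0.05 on replicates 4 to 6, which is less than on untreated replicate 1 (0.48). Mag lay below Mobp on 2 of 3 arrays at 2 weeks and on 0 of 4 at 4 weeks. These orders compare differences from the untreated median, not levels, and were picked out after the values had been seen, so no test was made.

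**Figure D4:**
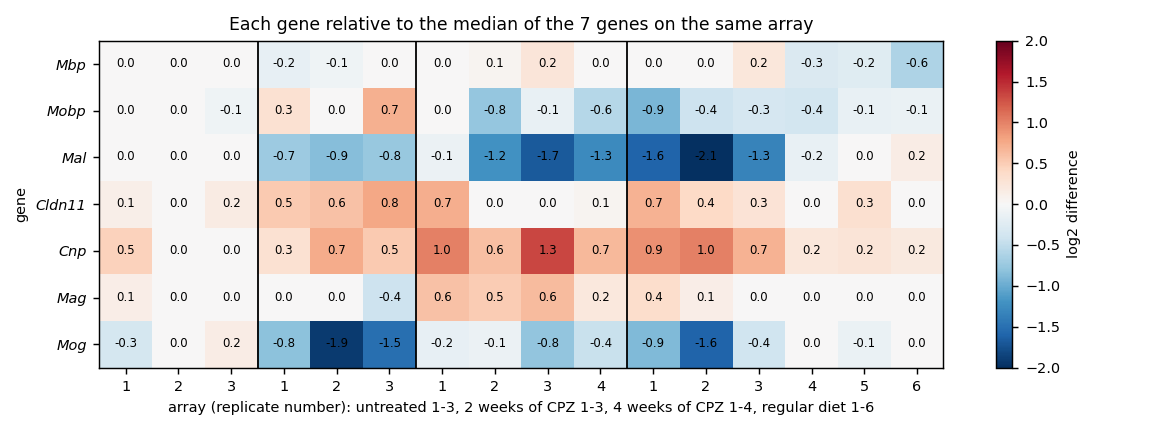
Leading probe of each of the 7 genes (rows) on each of the 16 arrays (columns, replicate numbers within groups separated by lines), as the log2 difference from the median of the 7 genes on that array. On the CPZ arrays and on regular diet replicates 1 to 3, Mal is below the median (blue) and Cnp above it (red), and the lowest gene is Mal or Mog, while regular diet replicates 4 to 6 show a spread of no more than 0.82 between genes.

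The regular diet arrays divided into low and untreated-like arrays for every myelin gene. Their medians over the 12 probes were -3.39, -3.52 and -2.75 for replicates 1, 2 and 3 and -0.19, -0.09 and 0.62 for replicates 4, 5 and 6. For all 11 probes other than the third of Mbp, replicates 1 to 3 lay below every untreated array and replicates 4 to 6 within or above the untreated range. The widest gap in each of these probes lay between these arrays and measured 2.06 for Mbp to 3.78 for the second Mal probe. Within the labels these arrays are replicates of 1 group, and no comparison was made between them.

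Mal spanned the widest range on regular diet, at -4.93, -5.22, -3.92, -0.17, 0.02 and 0.8 for replicates 1 to 6. On replicates 1 and 2 it stood lower than on any of the 4 arrays at 4 weeks of CPZ. Cnp spanned the narrowest of the 7, at -2.41, -2.16, -1.89, 0.2, 0.25 and 0.85. Mog measured -4.22, -4.76, -2.99, -0.01, -0.13 and 0.65, and Mobp -4.25, -3.57, -2.92, -0.38, -0.15 and 0.51. Mag read -2.98, -3.03, -2.59, -0.02, 0 and 0.65, and Cldn11 -2.63, -2.76, -2.32, -0.01, 0.32 and 0.66. For Mbp the 6 values were -3.33, -3.16, -2.37, -0.31, -0.24 and 0.03, so that its highest regular diet array stood close to the untreated median while the other 6 genes reached 0.51 or more. The third Mbp probe stayed between -0.4 and -0.06 on these arrays.

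Taken as 1 group, regular diet against untreated gave a median difference of -1.52 (-0.02 over all probes). With the replicate block this median was -2.73, and array weights moved it the other way, as given under the processing. None of the 12 probes had every array below every untreated array (3.78% of all probes), none had an unadjusted limma p under 0.05 (4.53% lower among all), and 0 were called (0.0108% called lower). Of the 12, 10 were at least 2-fold lower in the mean, against 1.12%. Mal had the largest difference among leading probes, -2.14 ± 1.26 with an interval from -4.84 to 0.56 (adjusted p = 0.549), and Cnp the smallest, -0.91 ± 0.87 (adjusted p = 0.657). Against 4 weeks of CPZ, the median was 0.95 (0.01 over all probes), 5 of 12 probes were at least 2-fold higher (12.3% of all), and 0 were called (0.0036% called higher and 0% lower) or had an unadjusted p under 0.05 (13.3% higher and 11.4% lower among all). Without replicate 1 of 4 weeks, that median was 0.35, and with the replicate block it was 0.04. This comparison shares its arrays with the others. The SD of the leading probes over these 6 arrays, from 1.45 for Cnp to 2.74 for Mal, spans the low and the untreated-like arrays and is no replicate error of 1 time point.

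Most myelin genes outside the set were lower on the same arrays. Of the 22 on a list of other genes of myelin and mature oligodendrocytes, 21 could be tested, 19 of them had every array below every untreated array at 2 weeks and 12 at 4 weeks, against 8.98 and 4.71% of all probes. Their median differences were -2.06 and -1.52, against 0.04 and -0.03 over all probes. Limma called 2 of the 21 lower at each time (0.124 and 0.0836% of all probes were called lower), 1 of which passed the filter on signal only through the untreated group, where it is high, so nothing is read from this count.

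The genes called were Ninj2 and Carns1. Ninj2, a cell adhesion protein, measured 0.89, 0 and -0.12 untreated, -3.05, -3.42 and -3.35 at 2 weeks and -3.17, -2.37, -2.61 and -2.81 at 4 weeks. Its difference was -3.53 ± 0.31 at 2 weeks (limma adjusted p = 0.0122) and -3 ± 0.29 at 4 weeks (adjusted p = 0.0174), or -1.68 and -1.48 with normexp. Carns1, which makes carnosine, had differences of -3.22 ± 0.41 (adjusted p = 0.0304) and -2.78 ± 0.38 (adjusted p = 0.0427). With normexp they were -0.98 and -0.89, under 2-fold and not called. Carns1 is the gene that passed the filter only through the untreated arrays: it was well above background on 1 of 3 arrays at 2 weeks and 2 of 4 at 4 weeks, and the remaining CPZ arrays give only a bound on its level, so its differences, SE and p rest in part on arrays at background. These calls depended on the processing. Ninj2 was called in 19 of 24 alternatives at 2 weeks and 13 of 24 at 4 weeks, and Carns1 in 10 of 23 at each time. Neither was called at either time with the replicate block, with all 4 groups in the fit or by the methods' test.

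Across the 16 arrays, each of the 7 genes correlated with the mean of the other 6 at r = 0.962 (Mal) to 0.989 (Mbp and Cldn11). Among 12612 other genes, those most like the mean of the 7 included Lpar1, Prr18 and Ugt8a (0.992 each), Tmem88b (0.991), Slc44a1 (0.988), Itgb4 (0.987), Plekhb1 and Tmem98 (0.986 each) and Tspan2 (0.985). These arrays share the 4 groups and the low and untreated-like sets, which by themselves give high r, and no p is given. Ugt8a makes galactocerebroside, a main lipid of myelin, and had differences of -3.04 at 2 weeks and -2.66 at 4 weeks. Lpar1, a receptor for lysophosphatidic acid, stood at -2.73 and -2.2, and Tspan2, a tetraspanin of myelin, at -2.56 and -2.28. None of these named genes passed the call in any of the 5 comparisons.

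Markers of other cells were summed per array, and none of the marker genes of any such list passed the call against untreated in either CPZ comparison or on regular diet. Precursor markers (7 genes such as Pdgfra and Cspg4) lay between -0.58 and 0.2 untreated, -0.85 and -0.02 at 2 weeks, -0.55 and 0.19 at 4 weeks, and -0.32 and 0.18 on regular diet. The groups overlapped, and no precursor marker was 2-fold lower. Microglial markers (10 genes, all well above background on every array) lay between -0.11 and 0.9 untreated, 0.64 and 1.86 at 2 weeks and 1.3 and 2.71 at 4 weeks in their sum. Not all 10 moved alike at 2 weeks, where P2ry12, Itgam and Tmem119 had differences of -0.6, -0.47 and -0.24, and the median of the 10 genes on replicate 2 was 0.12, within the untreated range. On regular diet they stood at 4.54 and 4.93 on replicates 1 and 2, which were the lowest 2 of the 6 for all 7 myelin genes, and at 1.84, 1.61, 2.06 and 1.54 on replicates 3 to 6.

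**Figure D5:**
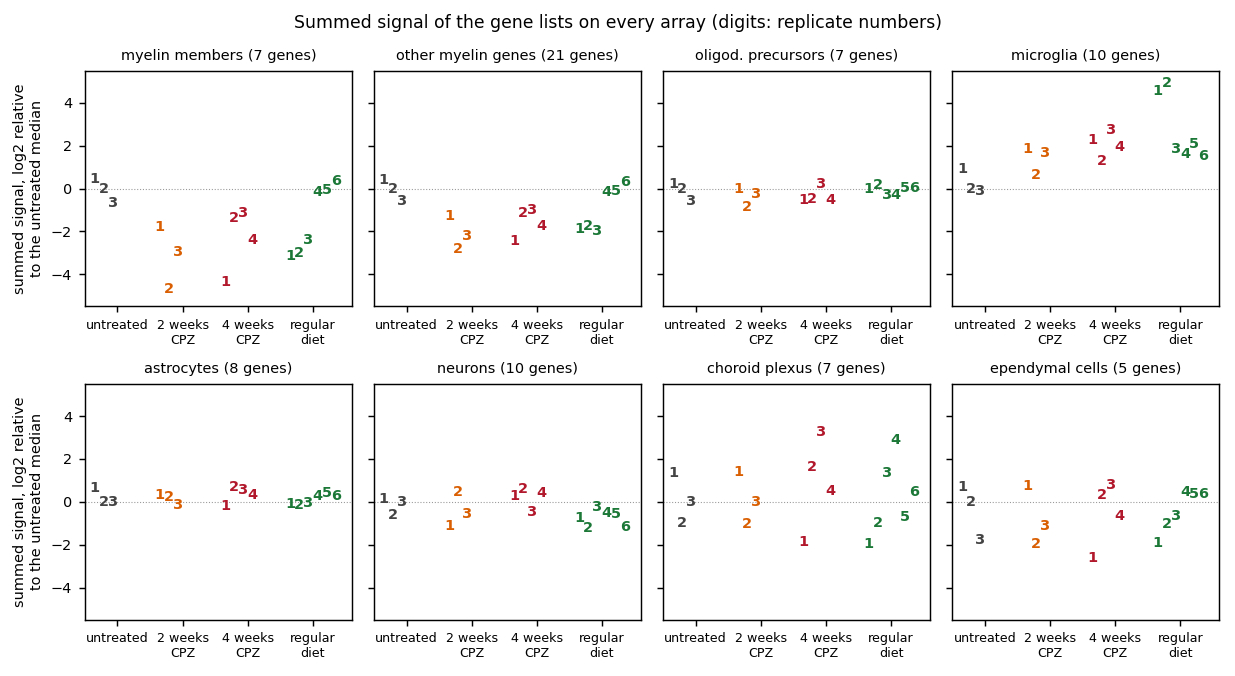
Summed signal of each gene list on every array (vertical axis, log2 relative to the untreated median; digits are replicate numbers). The 7 myelin genes and the 21 other myelin genes lie low on the same arrays, the microglial list is highest on regular diet replicates 1 and 2, and the ependymal list ranges from -2.62 to 0.77.

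Within some groups, markers of several other cell types stood in the same order of arrays as the myelin genes. Ependymal markers (5 genes, all well above background on every array) summed to 0.7, 0 and -1.76 untreated, 0.73, -1.98 and -1.11 at 2 weeks and -2.62, 0.34, 0.77 and -0.67 at 4 weeks. In each of these 3 groups the arrays stood in the same order as for the 7 myelin genes, whose summed levels were 0.46, 0 and -0.66, then -1.81, -4.71 and -2.95, then -4.35, -1.38, -1.16 and -2.39. On regular diet the ependymal sums were -1.93, -1.04, -0.68, 0.44, 0.36 and 0.38, lower on replicates 1 to 3 but not in the same order as the myelin genes. The precursor list and the other myelin genes kept the order of the myelin genes in the untreated and both CPZ groups as well. The choroid plexus list (7 genes, 6 or 7 of them well above background on each array) ran from -1.96 to 3.25 and kept it in the 2 CPZ groups, and the microglial and red blood cell lists kept it in the untreated and the 2-week groups, and the astrocyte list in the untreated group. The part of these cells in the spread of the myelin genes was not tested. Neurons (-1.2 to 0.58), astrocytes (-0.19 to 0.69), endothelial cells (-0.46 to 0.7) and red blood cells (-1 to 1.61) overlapped between the untreated and the CPZ groups in their sums. The astrocyte genes did not all move alike. At 2 weeks every array lay above the untreated arrays for Gfap (1.18), Slc1a3 (1.05) and Aldh1l1 (0.63), and below them for S100b (-1.01). At 4 weeks Slc1a3 (1.01) and Aldh1l1 (0.7) lay above again, and the other astrocyte genes overlapped at each time.

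Arrays were run on 4 slides, and no slide held every group. Within slide 1 the median difference of the 12 probes at 2 weeks was -3, from 2 arrays against 1. At 4 weeks it was -1.5 on slide 2 and -3.93 on slide 3, each from 1 array against 1, and 4 weeks stood 2.72 above 2 weeks on slide 4, where 2 arrays met 1. Regular diet stood -0.58, -1.55 and -1.17 from untreated on slides 1, 2 and 3, and 0.05, 2.54 and -0.48 from 4 weeks on slides 2, 3 and 4. The median against untreated was thus lower on every slide that could be compared, while that of regular diet against 4 weeks turned on slide 4. The regular diet values depend on which arrays a slide held. Slide 1 had untreated-like replicate 4, slide 4 low replicate 3, and slides 2 and 3 a low and an untreated-like replicate each. By the array medians, replicate 6 (0.62) stood above untreated replicate 2 (0) on slide 2. Replicate 5 (-0.09) stood above untreated replicate 3 (-0.68) on slide 3, and the remaining regular diet arrays stood below the untreated array of their slide.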

How the data were processed

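Corpus callosum RNA of 4 groups of mice was hybridized to 16 Agilent arrays of 1 colour. The authors extracted the background-subtracted spot intensity with Agilent Feature Extraction (11.0.1.1 as recorded with the data, while the methods name another version). They deposited a log2 table from GeneSpring (GX10.0), scaled to the 75th percentile. The values are relative to the median of the untreated arrays, a baseline found from the values. That table was the main input, and its difference from the scanner values had a median of 0.0012. Each column matched 1 array (r = 1.0, next array at most 0.88), through which background flags and slides were assigned, against the recorded sample of 14 arrays. This choice, the members and all gene and motif lists were made with earlier results of these data known. Probes were named through their accession with a RefSeq gene table (GRCm38.p6), and 27459 (66.7%) had a gene symbol. Each gene's leading probe has the highest mean scanner signal among its tested probes.

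Probes that all arrays of any 1 group flagged as well above background were fitted with limma 3.58.1 in R 4.3.3, 27499 probes for CPZ and untreated (10 arrays, 7 residual and 2.2 prior degrees of freedom) and 27779 for regular diet (16 arrays). Calls were made at 2-fold or more with a p under 0.05 after Benjamini-Hochberg adjustment over all probes, and the procedure was tested on simulated data. Genes outside the set were named where a listed gene was called, or where they were among the 10 with the highest correlation to the members. One gene that this rule names is not reported here. Precision rests on the number of arrays, with a median residual SD of 0.398 on the log2 scale. Alternatives were scanner values, the recorded assignment, normexp, quantile and median scaling, 2 filters, slide and replicate blocks, array weights, other fits, the methods' test and leaving out each array. Normexp used the median spot signal, since the mean signal is not in the files used here.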

Additional observations from a re-analysis of the deposited data

How the results depend on the processing

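The median difference of the 12 myelin probes stayed lower at 2 and 4 weeks of CPZ than untreated under every alternative except the recorded sample of each scanner file, where it was 1.1 and 0.51 (regular diet against 4 weeks -2.24). With that assignment the differences of Mbp, Mag, Mog, Mobp, Cnp, Mal and Cldn11 were 1.03, 1.5, 1.82, 0.63, 1.35, 1.13 and 0.72 at 2 weeks, and 0.54, 0.65, 1.03, 0.03, 0.4, 0.52 and 0.28 at 4 weeks. Against 4 weeks they were -2.18, -2.01, -2.52, -2.53, -1.79, -2.81 and -2.09 on regular diet. For 4 weeks against 2 weeks, Mbp, Mag, Mog, Cnp, Mal and Cldn11 gave -0.49, -0.84, -0.8, -0.95, -0.61 and -0.45. Ninj2 was 1.27 and 1.09 and Carns1 1.74 and 1.72 at 2 and 4 weeks. Why the assignments differ was not tested.

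The number of myelin probes called was 0 in all 5 comparisons, and 3 at 2 weeks and 2 at 4 weeks with normexp, 2 and 1 with the slide as a random block, and 2 at 4 weeks with only the 2 groups compared. Of all probes, these settings called lower 81 and 34, 168 and 133 (of 27499 each), and 95 of 23849. With array weights it was 11 at 2 weeks, 10 at 4 weeks and 3 for 4 weeks against 2 weeks. Of all 27499 probes, these weights called 685 lower and 1067 higher at 2 weeks, 1057 and 843 at 4 weeks, and 1772 and 715 for 4 weeks against 2 weeks. Here replicate 3 of 2 weeks had a weight of 307.84 and the other 9 arrays 0.2 to 4.74. Leaving out 1 array gave 0 calls at 2 weeks and 0 to 1 at 4 weeks, the call being Mal without replicate 2 of 2 weeks. The medians then ranged from -4.01 to -2.51 at 2 weeks, -2.77 to -1.83 at 4 weeks and 0.07 to 1.4 between them, -1.93 to -1.15 for regular diet against untreated and 0.35 to 1.36 against 4 weeks. Within slides, the medians for 4 weeks against untreated on slide 3 and for 4 weeks against 2 weeks on slide 4 moved beyond the spread between arrays, to -3.93 and 2.72.

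The difference of Mobp between 4 and 2 weeks, near 0, turned to 0.27 with median scaling, 1.18 with the slide as a fixed and 0.4 as a random block, and ranged from -0.97 to 0.67 on leaving out 1 array. In the same way Cldn11 ranged from -0.55 to 0.91 and Mal from -0.42 to 1.14, and Cldn11 was -0.1 with array weights, which also turned Cnp and Cldn11 on regular diet against untreated to 0.3 and 0.02 and moved the medians of regular diet to -0.29 against untreated and 1.73 against 4 weeks. Replicate numbers did not pair the arrays: 5 of 19 same-numbered pairs deviated together with r over 0.1 (range -0.8 to 0.34). With the replicate block the median was -3.25 at 2 weeks and -2.38 at 4 weeks with 0 calls, the medians of regular diet moved to -2.73 against untreated and 0.04 against 4 weeks, Mobp was 0.02 for 4 weeks against 2 weeks, and Mag and Mog on regular diet against 4 weeks turned to -0.11 and -0.09.

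Mog lies near background on 1 array at 2 weeks, the adjusted p-values rest on 3 or 4 arrays per CPZ group, and the regular diet arrays mix 2 times.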
